A study of Rattus norvegicus with 16 samples.

Results

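The potassium channel genes of the rat, named Kcn followed by a letter, were followed in the supraspinatus, a muscle of the rotator cuff, after a combined injury of its tendon and its nerve. They were taken by symbol alone: 91 of the 17147 genes in the table begin with Kcn and a letter, and no expression value entered that rule. The genes named and the lists set beside them were chosen with earlier results of these data known. By name the 91 comprise 39 pore-forming subunits of voltage-gated channels (Kcna to Kcnd, Kcnf to Kcnh, Kcnq, Kcns and Kcnv), 13 proteins auxiliary to them (Kcnab, Kcne, Kcnip and Kcnrg), 11 calcium- or sodium-activated channel genes (Kcnma, Kcnmb, Kcnn and Kcnt), 15 inward rectifiers (Kcnj) and 13 tandem-pore channels (Kcnk). Change was described for the 42 genes with a mean of 10 or more fragments over the 16 libraries. Those were 15, 6, 8, 9 and 4 genes of the families in the same order, and all 42 entered the test. The other 49 fell under that mean and are given by level only. Because the mean runs over all groups, genes with few control fragments, such as Kcnf1, Kcnip3 and Kcnj9, reached it through the injured libraries. Their place among the higher genes is thus not independent of the limit. Just under the limit lay Kcnk1 at a mean of 7.06 fragments and Kcnrg at 9.62, and close above it Kcnf1 at 13.

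Potassium channels let potassium ions leave or enter a cell along their electrochemical gradient. In a skeletal muscle fibre they hold the resting potential, end the action potential and, in the ATP-sensitive class, couple excitability to energy supply. Voltage-gated channels open on depolarization, calcium-activated channels open when cytosolic calcium rises, and inward rectifiers and tandem-pore channels carry current near rest. Denervated muscle fibres are known to depolarize and to gain an apamin-sensitive calcium-activated current that innervated adult fibres lack.

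The libraries were made from messenger RNA of Sprague Dawley rats in 4 groups of 4. Unoperated muscle served as control at 0 days. The other groups were taken 10, 30 and 60 days after bilateral surgery that combined a full-thickness supraspinatus tear with suprascapular neurectomy, the cutting out of nerve that supplies the muscle, so that tear and denervation cannot be told apart. The labels give neither the animals' age and sex nor which libraries came from the same rat, so p-values measure the spread between these libraries. All 3 times were compared with the same 4 control libraries, and 60 days was also compared with 10 days.

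Library totals ran from 17.2 to 39.9 M fragments (M, mega), and the 60-day libraries were the 4 with the lowest totals (exact permutation p = 0.0286 against 0 and against 10 days, two-sided, the smallest that 4 against 4 allows, adjusted p = 0.0571 over 4 comparisons). Levels are fragments of a gene for each 1 M counted (CPM), scaled by TMM factors, which equalize libraries on the bulk of their genes. A level of 3 fragments corresponded to 0.0712 to 0.175 CPM, and this floor covers counting error only. The tissue label was checked against 5 muscle fibre markers (Ckm, Acta1, Actn3, Tnnt3 and Myh4), none of which was at 0 in any group and which summed to 180563 to 197028 CPM in controls and to 38196 to 41769, 57698 to 97039 and 87816 to 98294 CPM at 10, 30 and 60 days. Whole muscle was sequenced, so a lower level may stand for fewer cells of a type or for less RNA per cell, which cannot be told apart. Using library totals in place of TMM factors shifted the median gene, on the log2 scale, by 0.66, 0.49 and 0.41 at 10, 30 and 60 days against 0 days, so changes are given relative to the bulk of genes. Replicate 1 of 60 days lay far from its group's other libraries in 5 of the 42 genes. Where a change described for a single gene crosses the threshold without it, both values are given beside that gene.

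Both directions were called among the 42 genes at each time. At 10 days against 0 days 12 were higher and 16 lower (28.6% and 38.1%), beside 33.3% and 29.4% of all 11658 genes tested. At 30 days 13 were higher and 13 lower (31.0% each), beside 33.7% and 30.9%. By 60 days 12 were higher and 8 lower (28.6% and 19.0%), beside 29.9% and 29.1%. A gene counted as called at an adjusted p under 0.05 by edgeR's quasi-likelihood test with Benjamini-Hochberg adjustment over all genes tested, which is the adjusted p given throughout. The median log2 fold change of the 42 was -0.48, -0.11 and 0.33 at the successive times, beside 0.06, 0.05 and 0.04 over the whole table tested. Scaled to library totals the calls became 15 higher and 7 lower, 19 and 6, and 19 and 3. The whole table moved too: 87.4%, 84.1% and 82.7% of all genes called were then higher. With TMM factors those shares were 53.1%, 52.2% and 50.7%.

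At 10 days 10 of the 42 were called and at least 2-fold higher, and 10 were called and at least 2-fold lower. Over the 3 times, 7 genes were higher at each (Kcnd1, Kcnd3, Kcnip3, Kcnj14, Kcnj9, Kcnma1 and Kcnn3) and 5 lower at each (Kcna7, Kcnh1, Kcnh2, Kcnj11 and Kcnj12). A further 7 passed the test at no time against 0 days (Kcne4, Kcnj3, Kcnk3, Kcnk5, Kcnn4, Kcns3 and Kcnt1). Kcnn2 was lower at 10 days and higher at 60. Shares of all genes tested are not given for 2-fold changes or for courses over the 3 times. These counts therefore only list the genes and do not set them apart from the rest.

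**Figure D1:**
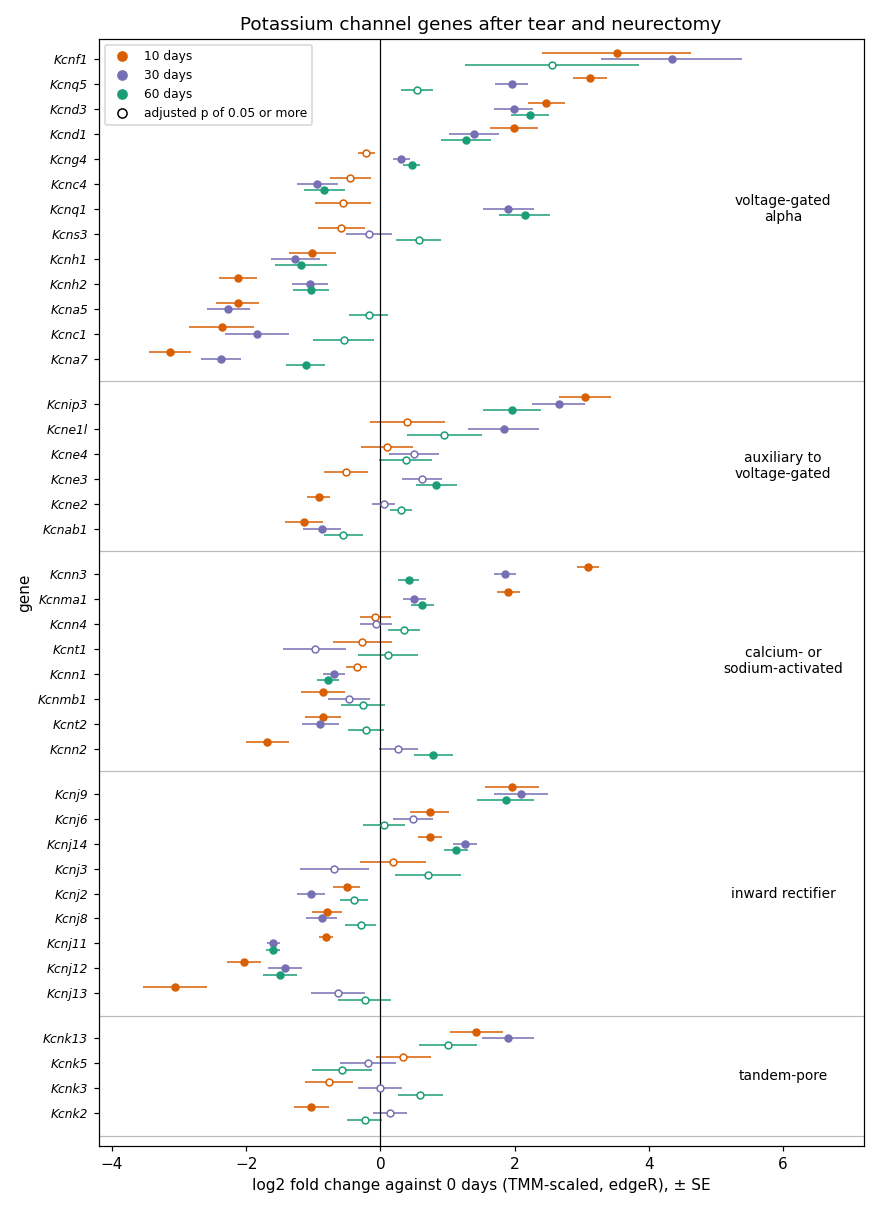
Log2 fold change against 0 days (horizontal axis) of 40 of the 42 potassium channel genes with a mean of 10 or more fragments, by family, with bars of ± 1 SE from edgeR. Colours stand for 10, 30 and 60 days, and open points mark an adjusted p of 0.05 or more. Kcnf1, Kcnq5, Kcnn3 and Kcnip3 lie farthest to the right at 10 days, and Kcna7 and Kcnj13 farthest to the left.

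Among the 8 calcium- or sodium-activated genes, the small-conductance channel gene Kcnn3 and the large-conductance channel gene Kcnma1 were raised at 10 days while Kcnn2, Kcnmb1 and Kcnt2 were lowered. Kcnn3 encodes the small-conductance subunit tied to the apamin-sensitive current of denervated and immature muscle. Its level was 16.5, 15.3, 16.3 and 12.8 CPM at 0 days, 113, 159.8, 119 and 130.2 at 10 days, 66.96, 47.2, 47.2 and 59.6 at 30 days and 26.5, 20.4, 16.8 and 17.7 at 60 days. Every 10-day library exceeded every 30-day library, and every 30-day library exceeded every 60-day library. The rise at 10 days was 8.57-fold, a log2 fold change of 3.10 ± 0.16 (SE, adjusted p = 5.19e-10). Kcnn3 stood at 1.86 ± 0.16 (SE, adjusted p = 6.78e-08) at 30 days and at 0.42 ± 0.16 (SE, adjusted p = 0.0324) at 60 days. The 60-day call was lost without replicate 1 of 60 days (0.26, adjusted p = 0.141), without replicate 2 of 60 days (0.42, adjusted p = 0.0562) and without replicate 4 of 0 days (0.36, adjusted p = 0.0793). From 10 to 60 days Kcnn3 fell by a log2 fold change of -2.68 ± 0.16 (SE, adjusted p = 5.48e-09).

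The other small-conductance genes did not share that course. Kcnn2, whose product carries afterhyperpolarizing current in many excitable cells, measured 1.97, 1.28, 1.16 and 1.77 CPM at 0 days, 0.696, 0.263, 0.297 and 0.615 at 10 days, 1.17, 2.04, 2.32 and 1.85 at 30 days and 2.31, 2.92, 1.99 and 3.33 at 60 days. All 4 libraries at 10 days lay below all of the other 12, and the 60-day libraries all lay above those at 0 days. Kcnn2 was 3.22-fold lower at 10 days (log2 -1.69 ± 0.33 (SE, adjusted p = 2.57e-04)) and higher at 60 days (0.79 ± 0.29 (SE, adjusted p = 0.0278)), with 0.27 ± 0.29 (SE, adjusted p = 0.427) at 30 days. The rise at 60 days was no longer called without replicate 2 (0.72, adjusted p = 0.0699) or 3 (0.69, adjusted p = 0.0762) of 0 days and without replicate 2 (0.74, adjusted p = 0.0604) or 4 (0.67, adjusted p = 0.0826) of 60 days. From 10 to 60 days Kcnn2 rose by 2.47 ± 0.32 (SE, adjusted p = 4.99e-06), the opposite direction to Kcnn3. Kcnn1, the remaining small-conductance gene, ranged over 6.199 to 7.53 CPM at 0 days, 4.395 to 6.36 at 10 days, 3.56 to 4.801 at 30 days and 3.31 to 5.26 CPM at 60 days, and was lower at 30 days (-0.70 ± 0.16 (SE, adjusted p = 0.00135)) and at 60 days (-0.78 ± 0.17 (SE, adjusted p = 7.87e-04)). Neither of these falls of Kcnn1 passed with library totals. Its 10-day difference (-0.35 ± 0.16 (SE, adjusted p = 0.0635)) passed without replicate 2 of 0 days (-0.41, adjusted p = 0.0496), replicate 3 of 10 days (-0.43, adjusted p = 0.0445) or replicate 1 of 60 days (-0.36, adjusted p = 0.0402). With every library kept it passed with RLE factors (adjusted p = 0.0424), DESeq2 (adjusted p = 0.0276) and the 2 groups alone (adjusted p = 0.0303). With library totals its sign turned. Kcnn4, the intermediate-conductance channel gene of immune cells and fibroblasts, passed the test in no comparison and ranged over 2.54 to 3.81 CPM at 0 days, 2.17 to 3.62 at 10 days, 2.17 to 4.08 at 30 days and 3.14 to 5.51 CPM at 60 days. Macrophage markers summed to 11.9 to 23.0 CPM in controls and to 37.5 to 54.9, 55.9 to 66.9 and 41.6 to 79.2 CPM at 10, 30 and 60 days, with 3, 5 and 5 of 5 called higher at the successive times. Their part in the Kcnn4 level was not tested.

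Kcnma1 encodes the pore of the large-conductance channel, which both calcium and voltage open. It measured 23.95, 19.1, 14.7 and 16.7 CPM at 0 days, 62.9, 84.3, 60.01 and 71.7 at 10 days, 26.9, 25.8, 24.8 and 27.7 at 30 days and 40.02, 25.1, 27.1 and 22.4 at 60 days. The 10-day libraries were the 4 highest of the 16, and those at 30 days were all above those at 0 days. Kcnma1 rose 3.75-fold at 10 days (log2 1.91 ± 0.17 (SE, adjusted p = 1.11e-07)), stood at 0.50 ± 0.17 (SE, adjusted p = 0.0177) and 0.62 ± 0.17 (SE, adjusted p = 0.00568) at 30 and 60 days, and fell from 10 to 60 days (-1.28 ± 0.17 (SE, adjusted p = 8.73e-06)). The 30-day call was lost without replicate 3 of 0 days (0.41, adjusted p = 0.0589). Among the genes of its auxiliary subunits, Lrrc38, Lrrc52 and Kcnmb1 were lower at 10 days, while Lrrc26 and Lrrc55 were too low to be tested. Lrrc52 had -2.13 ± 0.60 (SE, adjusted p = 0.00582) at 10 days and rose from 10 to 60 days (2.25 ± 0.60 (SE, adjusted p = 0.00449)). Its alternatives are not given here. Lrrc38, an auxiliary gamma subunit that lets the channel open at less depolarized potentials, measured 29.1, 32.8, 22.98 and 27.5 CPM at 0 days, 4.53, 2.14, 3.53 and 1.72 at 10 days, 4.75, 24.5, 20.6 and 9.25 at 30 days and 29.8, 38.5, 38.9 and 24.1 at 60 days. Every 10-day library of Lrrc38 was under every 0-day and every 60-day library, with a log2 fold change of -3.23 ± 0.43 (SE, adjusted p = 8.36e-06) at 10 days and 0.22 ± 0.38 (SE, adjusted p = 0.628) at 60 days. At 30 days it had -0.92 ± 0.38 (SE, adjusted p = 0.0451), a call that was lost with upper-quartile factors (adjusted p = 0.0749), library totals (adjusted p = 0.277), no filter (adjusted p = 0.0710), the 2 groups alone (adjusted p = 0.117). It was also lost in 11 of the 16 fits with 1 library left out (adjusted p up to 0.114).

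Kcnmb1, the smooth muscle beta subunit of that channel, ranged over 0.714 to 1.12 CPM at 0 days, 0.22998 to 0.659 at 10 days, 0.4001 to 0.855 at 30 days and 0.599 to 0.818 CPM at 60 days and was lower at 10 days (-0.86 ± 0.33 (SE, adjusted p = 0.0313)). That call was lost without replicate 1 (-0.72, adjusted p = 0.0917) or 2 (-0.87, adjusted p = 0.0535) of 0 days and without replicate 1 (-0.78, adjusted p = 0.0742) or 2 (-0.63, adjusted p = 0.0906) of 10 days, and with library totals (-0.20, adjusted p = 0.600). Kcnmb1 overlaps Kcnip1 in the RefSeq annotation of GRCr8, and both have fractional counts, so their fragments were partly shared out. Smooth muscle and pericyte markers moved with it: their sum was 292 to 373 CPM at 0 days and 134 to 199 at 10 days, and 5 of 6 were called lower. Their part in the Kcnmb1 result was not tested. The sodium-activated channel gene Kcnt2 ranged over 0.766 to 1.25 CPM at 0 days, 0.4303 to 0.638 at 10 days, 0.4401 to 0.684 at 30 days and 0.578 to 1.29 CPM at 60 days and was lower at 10 days (-0.86 ± 0.27 (SE, adjusted p = 0.00991)) and 30 days (-0.89 ± 0.27 (SE, adjusted p = 0.00839)), but neither fall passed with library totals. Kcnt1, the second sodium-activated channel gene, passed in no comparison and ranged over 0.9101 to 1.28 CPM at 0 days, 0.45996 to 1.48 at 10 days, 0.20005 to 0.815 at 30 days and 0.461 to 1.82 CPM at 60 days. Its 30-day difference (-0.98 ± 0.46 (SE, adjusted p = 0.0738)) passed without replicate 1 of 60 days (-0.98, adjusted p = 0.0451), with DESeq2 (adjusted p = 0.0478) and with the 2 groups alone (adjusted p = 0.0215).

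**Figure D2:**
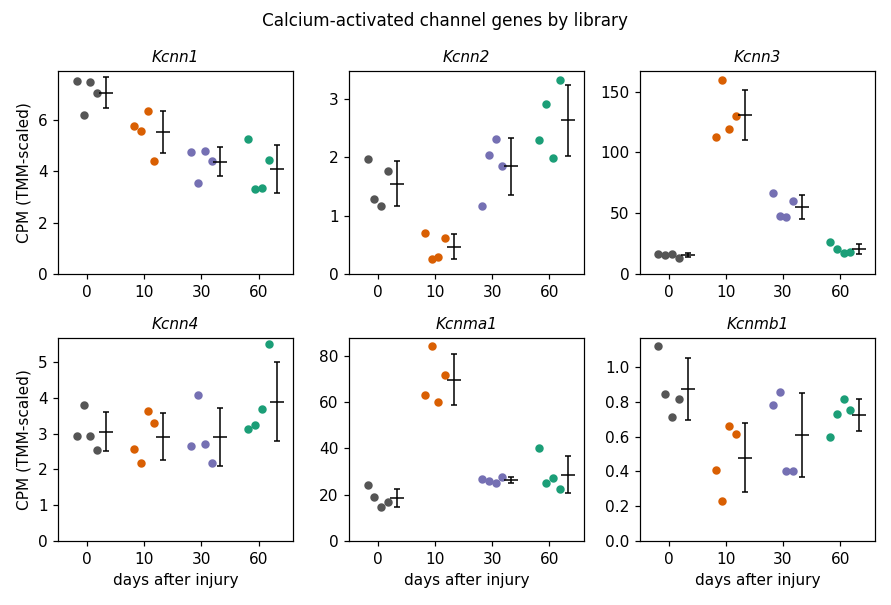
TMM-scaled CPM (vertical axis, linear from 0) of 6 calcium-activated channel genes at 0, 10, 30 and 60 days. Each point is 1 library, and the dash with its bar is the mean ± SD of 4 libraries. Kcnn3 and Kcnma1 are highest at 10 days, where Kcnn2 is lowest.

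Of the 15 pore-forming voltage-gated genes, 5 were higher and 5 lower at 10 days (33.3% each). The counts were 6 and 6 at 30 days (40% each), and 5 and 5 at 60 days (33.3% each). All genes tested gave 33.3% and 29.4% at 10 days, 33.7% and 30.9% at 30 days, and 29.9% and 29.1% at 60 days. The voltage-gated genes raised at 10 days included Kcnq5, Kcnd1, Kcnd3 and Kcnf1. Kcna7, Kcnc1, Kcna5, Kcnh1 and Kcnh2 were lowered then, and Kcnc4 passed at 30 and 60 days. Kcnq1 and Kcng4 passed the test in the upward direction only at the later times.

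Of those that fell, Kcna7, a delayed rectifier of the Shaker family known from skeletal and cardiac muscle, had the largest fall at 10 days of the 42 genes. Its level was 236, 253, 247 and 277 CPM at 0 days, 48.6, 22.9, 23.4 and 20.4 at 10 days, 23.8, 71.7, 56.9 and 42.8 at 30 days and 125, 109, 134 and 100.2 at 60 days. No injured library reached any control library, and the 60-day libraries were all above those at 10 and 30 days. Kcna7 was 8.78-fold lower at 10 days (log2 -3.13 ± 0.31 (SE, adjusted p = 3.46e-07)), 5.18-fold lower at 30 days (-2.37 ± 0.30 (SE, adjusted p = 5.78e-06)) and 2.17-fold lower at 60 days (-1.11 ± 0.29 (SE, adjusted p = 0.00367)), and rose between 10 and 60 days (2.02 ± 0.30 (SE, adjusted p = 2.94e-05)).

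Kcnc1 and Kcnc4 encode Shaw-type subunits, which open at strong depolarization and repolarize quickly. Kcnc1 measured 7.42, 6.42, 5.26 and 7.86 CPM at 0 days, 2.81, 0.493, 0.824 and 1.01 at 10 days, 1.28, 1.71, 2.04 and 2.53 at 30 days and 9.64, 2.75, 2.28 and 3.56 at 60 days. All libraries at 10 and 30 days lay under all controls, while at 60 days replicate 1 lay above every control and the other 3 below them. Kcnc1 fell at 10 days (-2.37 ± 0.49 (SE, adjusted p = 5.41e-04)) and 30 days (-1.84 ± 0.47 (SE, adjusted p = 0.00316)) and had -0.55 ± 0.45 (SE, adjusted p = 0.3099) at 60 days, which became a fall of -1.23 (adjusted p = 0.0165) without replicate 1 of 60 days. Its rise from 10 to 60 days (1.82 ± 0.49 (SE, adjusted p = 0.00466)) was 1.14 (adjusted p = 0.0284) without replicate 1 of 60 days and 2.55 (adjusted p = 0.000263) without replicate 1 of 10 days. Without replicate 1 of 10 days its fall at 10 days was -3.10 (adjusted p = 3.82e-05).

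Kcnc4, which can pair with the auxiliary subunit Kcne3 in muscle, measured 236, 209, 200.1 and 195 CPM at 0 days, 147, 146, 177 and 146 at 10 days, 91.2, 115, 113 and 118 at 30 days and 244, 64.8, 69.2 and 92.003 at 60 days. Again replicate 1 of 60 days stood apart, above every control, while the other 3 libraries of 60 days lay below every control. Kcnc4 fell at 30 days (-0.94 ± 0.31 (SE, adjusted p = 0.01395)) and at 60 days (-0.84 ± 0.31 (SE, adjusted p = 0.0287)), with -0.45 ± 0.31 (SE, adjusted p = 0.214) at 10 days. All 4 libraries of 10 days lay below all 4 controls. The 10-day difference passed without replicate 1 of 60 days (-0.45, adjusted p = 0.00204) and with the 2 groups fitted alone (-0.47, adjusted p = 4.45e-04). Without replicate 1 of 60 days the 60-day fall was -1.48 (adjusted p = 7.16e-08), and 60 days was then also lower than 10 days (-1.03, adjusted p = 2.42e-06). With that library kept, leaving out any other 60-day library ended the call (adjusted p = 0.0869 without replicate 2, 0.0871 without replicate 3 and 0.0902 without replicate 4), as did leaving out replicate 1 (adjusted p = 0.0712) or 2 (adjusted p = 0.0523) of 0 days. Fitting the 2 groups alone ended it too (adjusted p = 0.0961). Neither the 30-day nor the 60-day fall of Kcnc4 passed with library totals (-0.45, adjusted p = 0.179 and -0.45, adjusted p = 0.192).

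Kcna5, a delayed rectifier known from vascular smooth muscle and atrium, measured 7.03, 6.64, 5.13 and 3.74 CPM at 0 days, 2.09, 0.953, 1.02 and 1.05 at 10 days, 1.06, 1.23, 1.2003 and 1.17 at 30 days and 4.196, 8.47, 2.86 and 4.44 at 60 days. The libraries at 10 and 30 days were the 8 lowest, and the control range overlapped that of 60 days. Kcna5 fell 4.37-fold at 10 days (-2.13 ± 0.32 (SE, adjusted p = 2.09e-05)) and 4.81-fold at 30 days (-2.26 ± 0.32 (SE, adjusted p = 1.53e-05)), had -0.18 ± 0.30 (SE, adjusted p = 0.623) at 60 days, and rose from 10 to 60 days (1.95 ± 0.32 (SE, adjusted p = 6.38e-05)). Smooth muscle and pericyte markers summed to 193 to 222 CPM at 30 days and 218 to 389 at 60 days, with 4 of 6 called lower at 30 days and 5 of 6 higher at 60 than at 10 days. Endothelial markers summed to 256 to 311, 135 to 217, 201 to 236 and 223 to 353 CPM at the successive times. The part of either list in the Kcna5 course was not tested.

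Kcnh2 encodes the pore of the rapid delayed rectifier of the heart, and Kcnh1 encodes a related subunit studied in myoblast fusion. Kcnh2 measured 6.02, 6.16, 6.69 and 5.36 CPM at 0 days, 2.35, 0.789, 1.38 and 1.01 at 10 days, 2.34, 2.56, 4.32 and 2.53 at 30 days and 2.398, 2.58, 2.86 and 3.96 at 60 days. Each injured library was below each control. Kcnh2 fell 4.34-fold at 10 days (-2.12 ± 0.28 (SE, adjusted p = 5.98e-06)), with -1.05 ± 0.27 (SE, adjusted p = 0.002605) and -1.03 ± 0.27 (SE, adjusted p = 0.00397) at 30 and 60 days, and rose from 10 to 60 days (1.08 ± 0.29 (SE, adjusted p = 0.00401)). For Kcnh1 the levels were 1.18, 0.624, 0.848 and 0.958 CPM at 0 days, 0.406, 0.427, 0.395 and 0.523 at 10 days, 0.319, 0.594, 0.2401 and 0.241 at 30 days and 0.323, 0.561, 0.117 and 0.533 at 60 days. Here too all injured libraries were below the controls, and the injured groups overlapped one another. The falls of Kcnh1 were -1.01 ± 0.35 (SE, adjusted p = 0.0188), -1.27 ± 0.36 (SE, adjusted p = 0.00571) and -1.18 ± 0.38 (SE, adjusted p = 0.0142), and the first was lost without replicate 1 of 0 days (adjusted p = 0.0624). With library totals none of the 3 falls of Kcnh1 passed, and for Kcnh2 only the 10-day fall passed.

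**Figure D3:**
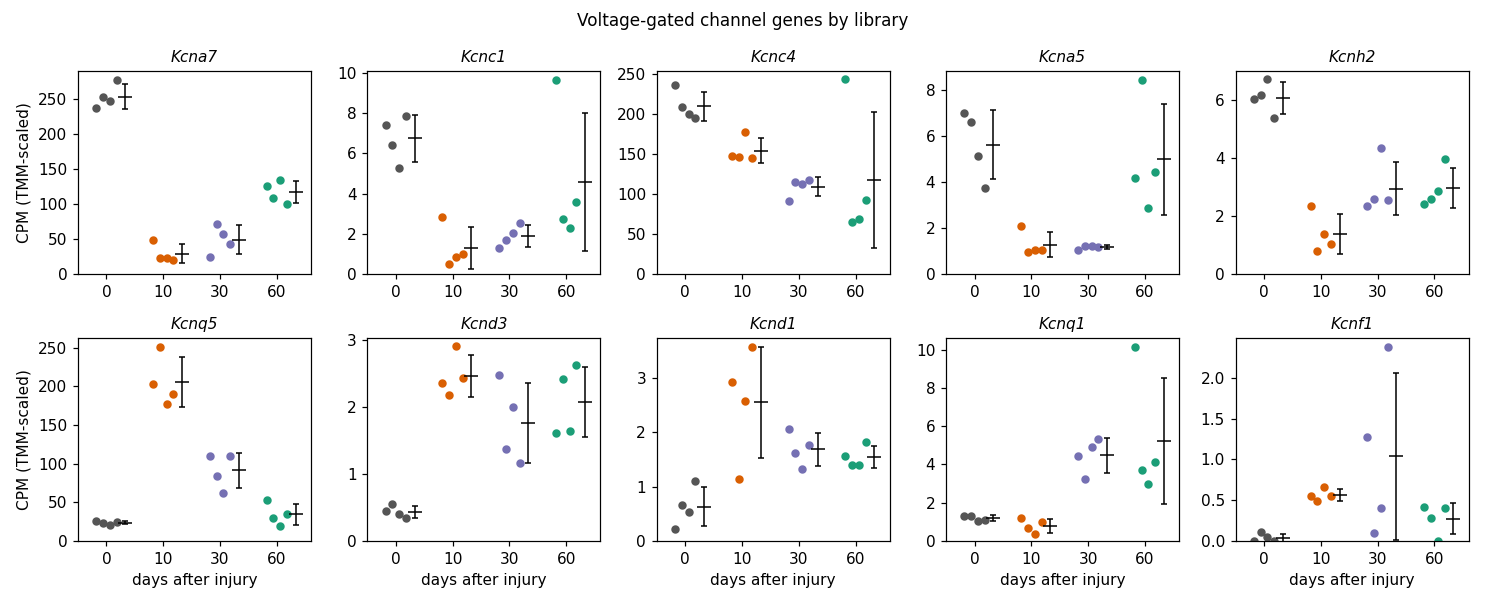
TMM-scaled CPM (vertical axis, linear from 0) of 10 voltage-gated channel genes at 0, 10, 30 and 60 days. Points are libraries, and the dash with its bar is the mean ± SD of 4 libraries. Kcna7, Kcnc1, Kcna5 and Kcnh2 are lowest at 10 or 30 days, Kcnq5 is highest at 10 days, and the high 60-day point of Kcnc1, Kcnc4 and Kcnq1 is replicate 1.

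Of the voltage-gated genes that rose, Kcnq5 encodes a slowly gating, non-inactivating subunit of the M-current family that skeletal and smooth muscle also express. Its level was 25.3, 23.7, 20.97 and 24.05 CPM at 0 days, 203, 251, 178 and 190.0 at 10 days, 109.6, 83.8, 62.01 and 109 at 30 days and 53.03, 30.2, 19.2 and 34.4 at 60 days. The order of the groups was 10, 30, then 60 days, with no overlap among the injured groups and overlap only between 60 and 0 days. Kcnq5 rose 8.75-fold at 10 days (3.13 ± 0.25 (SE, adjusted p = 4.21e-08)) and 3.88-fold at 30 days (1.96 ± 0.24 (SE, adjusted p = 5.44e-06)), had 0.55 ± 0.24 (SE, adjusted p = 0.0638) at 60 days, and fell from 10 to 60 days (-2.58 ± 0.25 (SE, adjusted p = 4.41e-07)). The 60-day difference passed without replicate 3 of 30 days (0.54, adjusted p = 0.0473) or of 60 days (0.74, adjusted p = 0.00795). With every library kept it passed in some alternatives. Among them were upper-quartile factors (0.68, adjusted p = 0.0179), DESeq2 (0.54, adjusted p = 0.0443) and library totals (0.95, adjusted p = 0.00398).

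Kcnd1 and Kcnd3 encode A-type subunits, which inactivate quickly. Kcnd3 measured 0.4498, 0.5502, 0.402 and 0.335 CPM at 0 days, 2.35, 2.17, 2.8998 and 2.43 at 10 days, 2.48, 1.38, 2.0004 and 1.17 at 30 days and 1.61, 2.41, 1.64 and 2.62 at 60 days, so that every injured library exceeded every control. Its log2 fold changes were 2.48 ± 0.28 (SE, adjusted p = 9.92e-07), 1.98 ± 0.29 (SE, adjusted p = 1.67e-05) and 2.23 ± 0.29 (SE, adjusted p = 7.90e-06) at the successive times, and the injured groups overlapped. Kcnd1 measured 0.225, 0.6603, 0.535 and 1.102 CPM at 0 days, 2.93, 1.15, 2.57 and 3.57 at 10 days, 2.05, 1.61, 1.32 and 1.77 at 30 days and 1.57, 1.402, 1.403 and 1.82 at 60 days. Again no injured library fell to the level of a control, and Kcnd1 was raised at each time (1.99 ± 0.36 (SE, adjusted p = 1.31e-04), 1.39 ± 0.37 (SE, adjusted p = 0.00327) and 1.28 ± 0.38 (SE, adjusted p = 0.00858)).

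Kcnf1 encodes an electrically silent subunit that forms no channel alone. It was near the floor in controls, with 0, 3, 1 and 0 fragments, against 15 to 20 at 10 days, 4 to 59 at 30 days and 0 to 9 at 60 days. In CPM this was 0, 0.11004, 0.0446 and 0 CPM at 0 days, 0.551, 0.493, 0.659 and 0.553 at 10 days, 1.28, 0.09497, 0.4001 and 2.37 at 30 days and 0.415, 0.2804, 0 and 0.40001 at 60 days. The call at 10 days (3.52 ± 1.11 (SE, adjusted p = 0.0117)) and at 30 days (4.34 ± 1.05 (SE, adjusted p = 0.001903)) rests on 4 control fragments in all, and the size of the fitted change depends on them. Without replicate 2 of 0 days, which holds 3 of the 4, the values became 4.75 and 5.57, and without replicate 4 of 30 days the 30-day value was 3.52. The silent subunit Kcng4 ranged over 5.58 to 7.01 CPM at 0 days, 4.87 to 5.75 at 10 days, 7.16 to 8.999 at 30 days and 7.01 to 10.1 CPM at 60 days, and was higher at 30 days (0.31 ± 0.13 (SE, adjusted p = 0.0425)) and 60 days (0.47 ± 0.13 (SE, adjusted p = 0.00557)) and higher at 60 than at 10 days (0.68 ± 0.13 (SE, adjusted p = 2.49e-04)). Its rise at 30 days was no longer called in 6 fits with 1 library left out (without replicates 3 and 4 of 0 days, 3 of 10 days, 1 and 2 of 30 days and 3 of 60 days, log2 0.23 to 0.33). It was also lost with DESeq2 (0.28, adjusted p = 0.0580), with RLE factors (0.28, adjusted p = 0.0648) and with no filter (0.297, adjusted p = 0.0670). Kcns3, another silent subunit, passed at no time against 0 days but was higher at 60 than at 10 days (1.15 ± 0.34 (SE, adjusted p = 0.00788)), over a range of 0.562 to 1.695 CPM at 0 days, 0.464 to 0.984 at 10 days, 0.684 to 1.12 at 30 days and 1.06 to 1.91 CPM at 60 days. Without replicate 3 of 0 days its 60-day difference passed (0.97, adjusted p = 0.0235).

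Kcnq1, the pore of the slow cardiac delayed rectifier, rose late. It measured 1.29, 1.32, 1.03 and 1.102 CPM at 0 days, 1.19, 0.657, 0.362 and 0.984 at 10 days, 4.46, 3.23, 4.92 and 5.35 at 30 days and 10.1, 3.702, 2.98 and 4.13 at 60 days. All 30-day and 60-day libraries were above all libraries at 0 and 10 days, and replicate 1 of 60 days was the highest. Kcnq1 had -0.56 ± 0.42 (SE, adjusted p = 0.256) at 10 days and rose 3.76-fold at 30 days (1.91 ± 0.38 (SE, adjusted p = 3.41e-04)) and 4.43-fold at 60 days (2.15 ± 0.38 (SE, adjusted p = 1.63e-04)), which was 1.60 (adjusted p = 0.000169) without replicate 1 of 60 days. From 10 to 60 days it rose by 2.70 ± 0.38 (SE, adjusted p = 1.47e-05), and by 2.16 (adjusted p = 7.07e-06) without that replicate. A long non-coding gene overlaps Kcnq1 in GRCr8. The strand setting of the counting is not given in the sources used here, so fragments of the pair cannot be told apart. Non-coding genes or pseudogenes also overlap others named here, among them Kcnn3, Kcnq5, Kcnma1, Kcnn2, Kcnc1, Kcnc4, Kcnd3 and Kcnk13. The same limit holds for these.

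The 6 auxiliary genes held 1 higher and 2 lower at 10 days (16.7% and 33.3%). They held 2 and 1 at 30 days (33.3% and 16.7%), and 2 and 0 at 60 days (33.3% and 0%). All genes tested gave 33.3% and 29.4%, 33.7% and 30.9%, and 29.9% and 29.1% at the successive times. Kcnip3 encodes a calcium-binding partner of A-type subunits that is also known as a transcriptional repressor. It measured 0.0562, 0.11004, 0.312 and 0.192 CPM at 0 days, 1.39, 1.12, 1.19 and 2.06 at 10 days, 1.03, 0.973, 1.0002 and 1.41 at 30 days and 0.738, 0.617, 0.994 and 0.40001 at 60 days. Every injured library was above every control, and controls held 1 to 7 fragments each. Kcnip3 rose 8.29-fold at 10 days (3.05 ± 0.39 (SE, adjusted p = 3.44e-06)), 6.31-fold at 30 days (2.66 ± 0.40 (SE, adjusted p = 2.29e-05)) and 3.91-fold at 60 days (1.97 ± 0.43 (SE, adjusted p = 0.001005)), and fell from 10 to 60 days (-1.08 ± 0.32 (SE, adjusted p = 0.00716)). It thus rose at the same times as the A-type genes Kcnd1 and Kcnd3.

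Kcnab1, a cytosolic beta subunit of Shaker-type channels, measured 15.3, 14.7, 18.2 and 12.4 CPM at 0 days, 6.44, 7.03, 6.36 and 7.68 at 10 days, 11.5, 8.83, 6.201 and 6.47 at 30 days and 19.04, 5.72, 8.3003 and 8.09 at 60 days. The libraries at 10 and 30 days were all below the controls, and replicate 1 of 60 days was above all of them. Kcnab1 fell at 10 days (-1.14 ± 0.29 (SE, adjusted p = 0.00283)) and 30 days (-0.87 ± 0.29 (SE, adjusted p = 0.0147)) and had -0.55 ± 0.29 (SE, adjusted p = 0.111) at 60 days, which became a fall of -1.04 (adjusted p = 0.000360) without replicate 1 of 60 days. With library totals neither fall of Kcnab1 passed. Kcne3, the single-span subunit that pairs with Kcnc4 in muscle, measured 0.394, 0.5502, 0.446 and 0.479 CPM at 0 days, 0.2902, 0.296, 0.231 and 0.492 at 10 days, 0.957, 0.5698, 0.7202 and 0.684 at 30 days and 0.599, 1.29, 0.818 and 0.711 at 60 days. Its 60-day libraries were all above the controls, with -0.52 ± 0.33 (SE, adjusted p = 0.177) at 10 days, 0.62 ± 0.30 (SE, adjusted p = 0.0819) at 30 days, a rise of 0.83 ± 0.31 (SE, adjusted p = 0.0285) at 60 days and 1.35 ± 0.31 (SE, adjusted p = 0.00116) from 10 to 60 days. The call against 0 days was lost without replicate 1 (0.79, adjusted p = 0.0623) or 3 (0.83, adjusted p = 0.0556) of 0 days and without replicate 2 of 60 days (0.57, adjusted p = 0.127).

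Other single-span subunits of the Kcne family moved at single times. Kcne2 ranged over 3.44 to 4.51 CPM at 0 days, 1.94 to 2.44 at 10 days, 3.74 to 5.1997 at 30 days and 3.64 to 6.196 CPM at 60 days, was lower at 10 days (-0.92 ± 0.17 (SE, adjusted p = 1.99e-04), which did not pass with library totals) and rose from 10 to 60 days (1.23 ± 0.17 (SE, adjusted p = 1.30e-05)). Its difference at 60 days from 0 days (0.31 ± 0.17 (SE, adjusted p = 0.125)) passed without replicate 1 of 60 days (0.45, adjusted p = 0.0185). Kcne1l, listed in GRCr8 as Kcne5, ranged over 0.625 to 1.36 CPM at 0 days, 0.768 to 1.74 at 10 days, 0.602 to 5.06 at 30 days and 0.922 to 3.39 CPM at 60 days and was higher at 30 days (1.84 ± 0.53 (SE, adjusted p = 0.00665)), with its 30-day range reaching down into that of the controls. Kcne4 passed in no comparison, with 0.357 to 0.575 CPM at 0 days, 0.329 to 0.696 at 10 days, 0.248 to 1.07 at 30 days and 0.468 to 0.922 CPM at 60 days. Its 30-day difference passed without replicate 1 of 30 days (0.78, adjusted p = 0.0417).

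Of the 9 inward rectifier genes, 3 were higher and 5 lower at 10 days (33.3% and 55.6%). The counts were 2 and 4 at 30 days (22.2% and 44.4%), and 2 and 2 at 60 days (22.2% each). All genes tested gave 33.3% and 29.4%, 33.7% and 30.9%, and 29.9% and 29.1% at the successive times. The lowered inward rectifier genes include the pore of the ATP-sensitive channel and both strong inward rectifiers described for muscle fibres. Kcnj11, that ATP-sensitive pore, measured 429.7, 448, 405 and 424 CPM at 0 days, 233, 224, 281 and 232 at 10 days, 142, 129, 145 and 149 at 30 days and 168, 131, 147 and 116 at 60 days. The groups at 0 and 10 days were separate from each other and from the rest, while 30 and 60 days overlapped. Kcnj11 was 1.76-fold lower at 10 days (-0.81 ± 0.10 (SE, adjusted p = 2.82e-06)), 3.02-fold lower at 30 days (-1.59 ± 0.10 (SE, adjusted p = 2.87e-09)) and 3.04-fold lower at 60 days (-1.60 ± 0.10 (SE, adjusted p = 8.79e-09)), and it fell further from 10 to 60 days (-0.79 ± 0.10 (SE, adjusted p = 5.63e-06)). With library totals its 10-day difference was -0.15 (adjusted p = 0.157).

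The sulfonylurea receptors that complete this channel had another course. Abcc9, the form usual in muscle, measured 226, 247, 212 and 259 CPM at 0 days, 257, 289, 270.2 and 233 at 10 days, 187, 150.0, 130.3 and 150.4 at 30 days and 167, 157, 146 and 134 at 60 days. Its 10-day libraries overlapped the controls, and those at 30 and 60 days were all below them. Abcc9 had 0.15 ± 0.11 (SE, adjusted p = 0.223) at 10 days and was lower at 30 days (-0.61 ± 0.11 (SE, adjusted p = 1.03e-04)) and 60 days (-0.64 ± 0.11 (SE, adjusted p = 8.57e-05)). Abcc8, known from pancreatic beta cells, measured 17.04, 19.9, 23.3 and 19.8 CPM at 0 days, 24.95, 23.6, 31.6 and 22.5 at 10 days, 12.5, 10.5, 13.04 and 11.02 at 30 days and 8.76, 7.68, 8.18 and 4.31 at 60 days. Like Abcc9 it had no 10-day fall (0.36 ± 0.17 (SE, adjusted p = 0.0713)), and it was lower at 30 days (-0.77 ± 0.17 (SE, adjusted p = 8.12e-04)) and 60 days (-1.48 ± 0.18 (SE, adjusted p = 3.70e-06)). The 10-day difference of Abcc8 passed as a rise in some alternatives, among them the 2 groups fitted alone (0.33, adjusted p = 0.031). With library totals the 10-day difference of Abcc9 passed as a rise (0.81, adjusted p = 7.81e-06). Of the receptors' falls, those of Abcc9 at both times and of Abcc8 at 30 days did not pass with library totals. Kcnj8, the vascular ATP-sensitive pore, ranged over 8.097 to 20.1 CPM at 0 days, 6.34 to 8.67 at 10 days, 5.29 to 9.25 at 30 days and 7.701 to 12.04 CPM at 60 days. It was lower at 10 days (-0.80 ± 0.23 (SE, adjusted p = 0.00641)) and 30 days (-0.87 ± 0.23 (SE, adjusted p = 0.00358)), and both calls were lost with library totals. From 10 to 60 days it had 0.50 ± 0.23 (SE, adjusted p = 0.0711). That difference passed without replicates 1 or 4 of 0 days (0.52 each, adjusted p = 0.0353 and 0.0262) or replicate 1 of 60 days (0.63, adjusted p = 0.0281). The sums of smooth muscle, pericyte and endothelial markers given for Kcna5 moved the same way, and their part in the Kcnj8 result was not tested.

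Kcnj2 and Kcnj12 encode strong inward rectifiers that stabilize the resting potential. Kcnj12 measured 130.4, 121, 117 and 99.4 CPM at 0 days, 27.1, 40.7, 25.8 and 20.5 at 10 days, 29.5, 57.8, 34.5 and 52.6 at 30 days and 61.9, 35.6, 34.02 and 34.3 at 60 days. All injured libraries were under all controls, and replicate 1 of 60 days was the highest injured library. Kcnj12 was 4.0998-fold lower at 10 days (-2.04 ± 0.25 (SE, adjusted p = 4.43e-06)), with -1.42 ± 0.25 (SE, adjusted p = 1.38e-04) at 30 days and -1.49 ± 0.25 (SE, adjusted p = 1.23e-04) at 60 days. Kcnj2 measured 15.6, 15.4, 12.05 and 13.7 CPM at 0 days, 11.1, 10.6, 7.55 and 10.8 at 10 days, 4.39, 8.67, 6.68 and 7.92 at 30 days and 13.4, 9.37, 12.7 and 7.73 at 60 days. The libraries at 10 and 30 days were below the controls and those at 60 days overlapped them. Kcnj2 was 2.04-fold lower at 30 days (-1.03 ± 0.20 (SE, adjusted p = 3.53e-04)), with -0.39 ± 0.20 (SE, adjusted p = 0.104) at 60 days, which passed without replicate 1 of 60 days (-0.52, adjusted p = 0.0463). The 10-day call of Kcnj2 (-0.50 ± 0.20 (SE, adjusted p = 0.0378)) did not hold: it was lost without replicates 1, 2 or 4 of 0 days and without replicates 2, 3 or 4 of 10 days (log2 -0.54 to -0.39). It was also lost with upper-quartile factors (adjusted p = 0.0541) and with the letter that ends each title as a covariate (adjusted p = 0.0569). With library totals it turned to 0.15 (adjusted p = 0.454).

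Kcnj14, a further member of that subfamily, rose. It measured 2.08, 2.31, 2.32 and 1.92 CPM at 0 days, 2.79, 3.58, 3.59 and 4.46 at 10 days, 6.27, 5.46, 4.12 and 4.91 at 30 days and 4.43, 5.83, 4.15 and 4.44 at 60 days. Each injured library exceeded each control, with log2 fold changes of 0.73 ± 0.18 (SE, adjusted p = 0.00169), 1.26 ± 0.18 (SE, adjusted p = 1.10e-05) and 1.12 ± 0.18 (SE, adjusted p = 6.03e-05) at the successive times. Kcnj13, known from transporting epithelia, measured 2.14, 2.201, 2.19 and 0.862 CPM at 0 days, 0.493, 0.164, 0.0989 and 0.0922 at 10 days, 0.638, 1.02, 1.92 and 1.25 at 30 days and 1.57, 1.68, 0.994 and 2.0001 at 60 days. The 10-day libraries, with 3 to 17 fragments each, were the 4 lowest, and the groups at 30 and 60 days overlapped the controls. Kcnj13 was 8.37-fold lower at 10 days (-3.07 ± 0.48 (SE, adjusted p = 3.33e-05)) and rose from 10 to 60 days (2.83 ± 0.49 (SE, adjusted p = 1.02e-04)), values that became -3.92 and 3.68 without replicate 1 of 10 days. At 30 and 60 days against 0 days it had -0.63 ± 0.40 (SE, adjusted p = 0.173) and -0.24 ± 0.40 (SE, adjusted p = 0.628). The Kcnj13 gene lies within the span of Gigyf2 in GRCr8, and Gigyf2 was not analysed here.

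Kcnj3, Kcnj6 and Kcnj9 encode subunits of channels that G proteins open. Kcnj9 measured 0.169, 0.257, 0.0446 and 0.2395 CPM at 0 days, 0.929, 0.624, 0.494 and 0.799 at 10 days, 1.205, 0.522, 0.6001 and 0.844 at 30 days and 0.599, 0.673, 0.701 and 0.711 at 60 days, from 1 to 7 fragments per control library. Every injured library was above every control (1.96 ± 0.40 (SE, adjusted p = 4.43e-04), 2.09 ± 0.40 (SE, adjusted p = 2.58e-04) and 1.87 ± 0.42 (SE, adjusted p = 0.00129)), with -0.09 ± 0.33 (SE, adjusted p = 0.824) from 10 to 60 days. Kcnj9 overlaps Igsf8 in GRCr8, and Igsf8 averaged 2.29, 8.78, 6.24 and 3.94 CPM at 0, 10, 30 and 60 days, so without strand the fragments of the pair cannot be told apart. Kcnj6 ranged over 0.844 to 1.29 CPM at 0 days, 1.61 to 1.92 at 10 days, 0.8402 to 2.303 at 30 days and 0.729 to 1.48 CPM at 60 days and was higher at 10 days (0.74 ± 0.29 (SE, adjusted p = 0.0357)). That call was lost without replicate 1 (0.68, adjusted p = 0.0761) or 2 (0.63, adjusted p = 0.0961) of 0 days and without replicate 1 (0.69, adjusted p = 0.0722), 2 (0.72, adjusted p = 0.0625) or 4 (0.76, adjusted p = 0.0524) of 10 days. From 10 to 60 days Kcnj6 had -0.68 ± 0.29 (SE, adjusted p = 0.05399). This change passed without replicates 1 or 3 of 30 days (-0.68 each, adjusted p = 0.0313 and 0.0357) and without replicates 1 or 4 of 60 days (-0.86 and -0.79, adjusted p = 0.0279 and 0.0456). At 30 days it passed without replicate 3 of 30 days (0.67, adjusted p = 0.0484). Kcnj3 passed in no comparison, with 0.587 to 2.83 CPM at 0 days, 1.28 to 2.47 at 10 days, 0.567 to 1.21 at 30 days and 1.07 to 4.98 CPM at 60 days. Its 60-day difference passed without replicate 4 of 0 days (1.26, adjusted p = 0.0459).

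**Figure D4:**
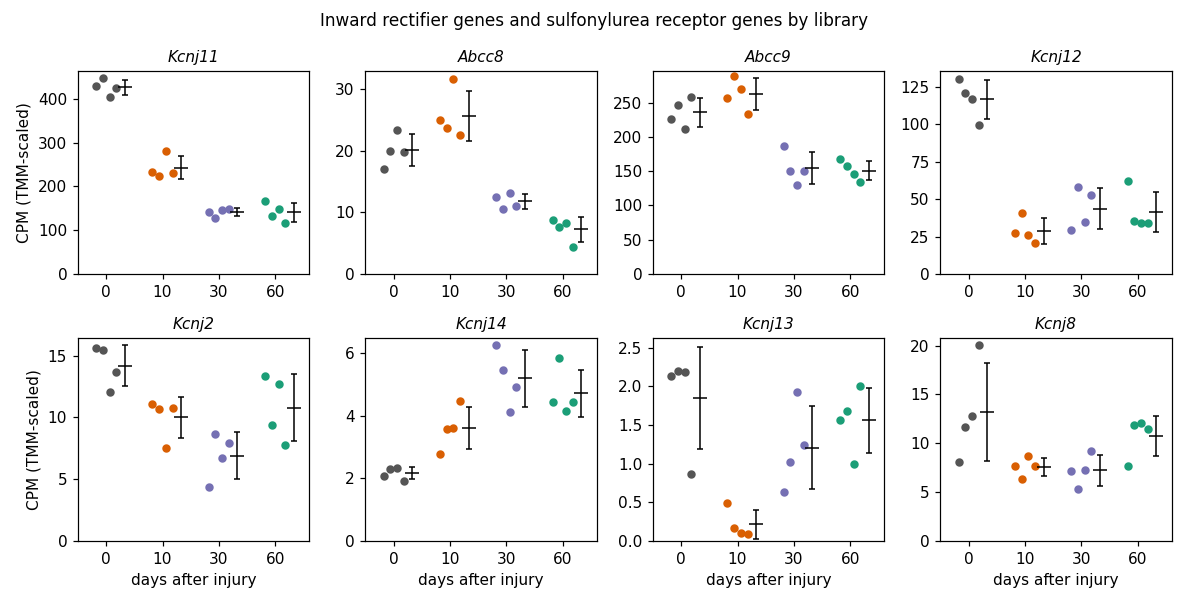
TMM-scaled CPM (vertical axis, linear from 0) of 6 inward rectifier genes and the sulfonylurea receptor genes Abcc8 and Abcc9 at 0, 10, 30 and 60 days. Points are libraries, and the dash with its bar is the mean ± SD of 4 libraries. Kcnj11 is lower at each time, while Abcc8 and Abcc9 overlap or exceed the controls at 10 days and are lower at 30 and 60 days.

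The 4 tandem-pore genes carry background current. Kcnk13, whose channel is known from microglia and other macrophages, measured 0.112, 0.2201, 0.402 and 0.192 CPM at 0 days, 0.8995, 0.624, 0.362 and 0.676 at 10 days, 1.098, 0.831, 0.6001 and 1.05 at 30 days and 0.369, 0.673, 0.292 and 0.578 at 60 days. Its 30-day libraries were all above the controls and 1 library at 10 days was not. Kcnk13 was higher at 10 days (1.43 ± 0.40 (SE, adjusted p = 0.00474)) and 30 days (1.90 ± 0.39 (SE, adjusted p = 4.35e-04)), with 1.01 ± 0.43 (SE, adjusted p = 0.0554) at 60 days. The 60-day difference of Kcnk13 passed without replicate 3 of 0 days (1.40, adjusted p = 0.0197), replicate 3 of 10 days (1.004, adjusted p = 0.0447), or replicates 1 or 3 of 60 days (1.12 and 1.16, adjusted p = 0.0494 and 0.0379). Macrophage markers, whose sums are given beside Kcnn4, were higher at the same times, and their part in the Kcnk13 result was not tested. Kcnk2, a mechanically gated channel, ranged over 1.07 to 1.97 CPM at 0 days, 0.45996 to 1.07 at 10 days, 1.61 to 2.05 at 30 days and 0.935 to 1.74 CPM at 60 days, was lower at 10 days (-1.03 ± 0.26 (SE, adjusted p = 0.00263)) and rose from 10 to 60 days (0.80 ± 0.27 (SE, adjusted p = 0.0167)). Neither call of Kcnk2 passed with library totals, and the second was lost without replicate 2 of 10 days (0.61, adjusted p = 0.0522) or replicate 2 of 60 days (0.69, adjusted p = 0.0545). Kcnk3, an acid-sensitive channel also known from brown fat, ranged over 0.383 to 0.848 CPM at 0 days, 0.296 to 0.435 at 10 days, 0.523 to 0.736 at 30 days and 0.449 to 1.51 CPM at 60 days. It passed at no time against 0 days and was higher at 60 than at 10 days (1.36 ± 0.34 (SE, adjusted p = 0.00244)). Its 10-day difference passed without replicate 4 of 0 days (-0.92, adjusted p = 0.0373) and without replicates 2 or 4 of 60 days (-0.77 and -0.76, adjusted p = 0.0444 and 0.0395). Its 60-day difference passed without replicate 2 of 60 days (0.81, adjusted p = 0.0380). Adipocyte markers summed to 7.42 to 41.5 CPM in controls and to 8.73 to 24.6, 11.5 to 27.8 and 49.6 to 119 CPM at 10, 30 and 60 days, with 4 of 4 called higher at 60 than at 10 days, and their part in the Kcnk3 result was not tested. Kcnk5, gated by alkaline pH, passed in no comparison, with 0.562 to 2.201 CPM at 0 days, 1.02 to 2.95 at 10 days, 0.815 to 1.93 at 30 days and 0.393 to 1.29 CPM at 60 days. Its difference of 60 from 10 days passed without replicate 3 of 10 days (-1.11, adjusted p = 0.0358).

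Directly compared, 60 and 10 days differed in 21 of the 42 genes, with 14 higher and 7 lower at 60 days (33.3% and 16.7%), beside 29.1% and 31.9% of all genes tested. The median log2 fold change of the 42 was 0.46, beside -0.01 for all genes tested. With library totals 13 were higher and 10 lower. Of all genes called, 28% were then higher, beside 47.7% with TMM factors. Pore-forming voltage-gated genes made up 8 of the 14 higher, which is 53.3% of the 15 in that family, beside 29.1% of all genes tested. The lower genes included Kcnn3, Kcnq5, Kcnma1 and Kcnip3, which had been raised at 10 days, and Kcnj11 and Kcnn1, which had not. The call of Kcnn1 (-0.43 ± 0.17 (SE, adjusted p = 0.0342)) was lost without replicates 1, 2 or 3 of 10 days and without replicates 2 or 3 of 60 days (log2 -0.42 to -0.34). It was also lost with upper-quartile factors (adjusted p = 0.0805) and the 2 groups alone (adjusted p = 0.0817).

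Kcnn3, Kcnq5, Kcnma1 and Kcnip3, raised at 10 days and lower again by 60 days, share this course, so the stretch upstream of their starts is shown. RefSeq promoters of GRCr8 were at hand for 32 of the 42 genes, each running from 250 bases before to 50 bases after the start. Only the 250 bases before the start are printed, 5′ to 3′ on the gene's strand. Capitals mark CANNTG, the E-box that basic helix-loop-helix factors such as the myogenic regulators bind. The stretches are chr2:177234090-177234339 on the plus strand for Kcnn3, chr9:31891282-31891531 on the minus strand for Kcnq5, chr15:351675-351924 on the plus strand for Kcnma1 and chr3:135195411-135195660 on the minus strand for Kcnip3.
Kcnn3: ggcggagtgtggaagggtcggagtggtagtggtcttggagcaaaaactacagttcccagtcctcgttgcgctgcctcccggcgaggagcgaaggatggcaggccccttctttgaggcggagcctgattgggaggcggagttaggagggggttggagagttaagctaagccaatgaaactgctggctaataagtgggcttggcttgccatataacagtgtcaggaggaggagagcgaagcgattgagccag
Kcnq5: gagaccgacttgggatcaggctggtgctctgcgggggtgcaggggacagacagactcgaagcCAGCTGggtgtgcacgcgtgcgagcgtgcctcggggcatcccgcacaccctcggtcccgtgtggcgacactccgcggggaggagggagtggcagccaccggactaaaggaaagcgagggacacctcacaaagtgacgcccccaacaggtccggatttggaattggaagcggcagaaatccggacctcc
Kcnma1: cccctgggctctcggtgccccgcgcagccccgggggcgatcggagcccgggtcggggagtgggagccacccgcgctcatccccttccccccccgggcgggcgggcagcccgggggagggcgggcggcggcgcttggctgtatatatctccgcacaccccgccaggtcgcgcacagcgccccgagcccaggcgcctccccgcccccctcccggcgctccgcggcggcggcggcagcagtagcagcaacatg
Kcnip3: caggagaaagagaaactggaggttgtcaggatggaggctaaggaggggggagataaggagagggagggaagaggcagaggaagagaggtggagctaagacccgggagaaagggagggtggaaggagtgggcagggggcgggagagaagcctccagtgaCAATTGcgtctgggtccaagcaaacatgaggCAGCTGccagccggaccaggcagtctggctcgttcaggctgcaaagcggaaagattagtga
Kcnip3 holds CAATTG at position -92 and CAGCTG at -61, counted from the start, and Kcnq5 holds CAGCTG at -188. Kcnn3 and Kcnma1, picked by the same calls, hold no CANNTG in this window. CAGCTG, which is its own reverse complement and a case of CANNTG, was in 11 of the 32 promoters of described genes (34.4%), beside 15.1% of all 33469 promoters. Any CANNTG was in 18 of 32 (56.2%), beside 72.1% of all. These are matches of letters only.

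Other genes of membrane excitability were taken as a list of 29 channel partners, sodium, chloride and calcium channel subunits, sodium pump subunits and pacemaker channels, 23 of which were tested. At 10, 30 and 60 days 4 were higher each time and 15, 16 and 14 lower, beside 33.3%, 33.7% and 29.9% higher and 29.4%, 30.9% and 29.1% lower of all genes tested. Median log2 fold changes of the list were -0.86, -0.92 and -0.64, beside 0.06, 0.05 and 0.04 for all genes. From 10 to 60 days 8 were higher and 9 lower, with a median of 0.19 beside -0.01. The list thus held more lower than higher genes at each time against 0 days, with TMM factors as with library totals. Clcn1, the chloride channel that carries most resting conductance of a fibre, fell by 1.52, 1.32 and 0.76 on the log2 scale at the successive times, and ranged over 202 to 236 CPM at 0 days, 64.2 to 88.3 at 10 days, 66.8 to 102 at 30 days and 100.2 to 154 CPM at 60 days.

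The 49 genes under a mean of 10 fragments gave levels only. No library held a fragment of Kcna4, Kcne1, Kcnj1, Kcnk6, Kcnk9 or Kcns2, and 16 of the 49, these 6 included, had at most 1 fragment in every library. The Shaker genes of nerve and immune cells lay low as well, with mean counts of 4 for Kcna1, 2.62 for Kcna2 and 0.938 for Kcna3. By family 24 of the 49 were pore-forming voltage-gated genes, 9 tandem-pore, 7 auxiliary, 6 inward rectifier and 3 calcium- or sodium-activated. Just 2 of the 49 passed the filter for the test, Kcnab2 and Kcnrg, and neither was called at any time.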

How the data were processed

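RNA of rat supraspinatus was extracted with a miRNeasy kit and made into TruSeq mRNA libraries, per the labels. The authors deposited 1 table of expected counts (fragments per gene and library, not scaled). The submitters' processing notes name TopHat2 2.0.9, Bowtie2 2.1.0.0, Cuffdiff 2.1.1 and build rn5. The annotation and strand setting are not given in the sources used here. Counts were rounded, and edgeR 4.0.16 (R 4.3.3) fitted all 16 libraries in 1 quasi-likelihood model with TMM factors. The filter filterByExpr kept 11658 of 17147 genes, p-values were Benjamini-Hochberg adjusted over these, and the threshold was 0.05. A standard error is the log2 fold change divided by the square root of F.

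Genes may be named if their mean is 10 or more fragments. Values in every library are given for up to 24 genes with the largest called, non-overlapping change and for a list known from muscle fibres, together 24 genes reported. Some genes that the counts include are not reported here. The genes and lists were chosen with earlier results of these data known. Tested on simulated data for 10 against 0 days (11487 genes tested), the fit called 172 of 200 genes changed 2-fold and 15 unchanged genes. The comparison of 30 with 0 days, simulated without change, gave 0 calls. The 200 genes were changed evenly up and down, with spread and scaling taken from the fitted model. With so few changed genes, the simulation cannot show how the scaling behaves in these data. RefSeq symbols of GRCr8 matched 90 of the 91 genes, and 1 matched by synonym. In GRCr8, 20 of the 42 described genes overlap another gene, and fragments of such pairs may be shared or lost. For 4 of them, Kcnj13, Kcnj9, Kcnk2 and Kcnmb1, the other gene is protein-coding. Alternatives were RLE and upper-quartile factors, library totals, DESeq2 1.42.0, no filter, the 2 groups alone, a replicate block, the title letter as covariate, an adjusted p under 0.01, a mean of 50 fragments and each library left out. Python 3.11.15 and matplotlib 3.10.9 drew the plots.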

Additional observations from a re-analysis of the deposited data

Results flagged for a closer look

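In 18 of 168 groups of 4 libraries (42 genes at 4 times), 1 library lay far from the other 3, where chance gives about 1 in 20, or 8.4. Replicate 1 of 60 days did so for 5 genes, with 244 CPM for Kcnc4, 61.9 for Kcnj12, 4.98 for Kcnj3 and 10.1 for Kcnq1, all above the other 3, and 7.70 for Kcnj8, below them. At 10 days the libraries apart included replicate 1 for Kcna5 (2.09 CPM) and Kcna7 (48.6), and replicate 3 for Kcnc4 (177), Kcnj11 (281.4) and, on the low side, Kcnj2 (7.55). At 30 days they included replicate 1 for Kcng4 (8.999 CPM), replicate 3 for Kcnh2 (4.32) and replicate 4 for Kcnip3 (1.41). At 0 days they were low values of replicate 3 for Kcne2 (3.44 CPM) and Kcne4 (0.357) and of replicate 4 for Kcnj13 (0.862).

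The response differed between 10 and 60 days in 21 genes by a direct test of the 2 times (edgeR, adjusted p under 0.05). On the log2 scale, 60 days exceeded 10 days by, among others, 2.83 for Kcnj13, 2.704 for Kcnq1, 2.47 for Kcnn2, 2.02 for Kcna7, 1.95 for Kcna5, 1.82 for Kcnc1, 1.36 for Kcnk3, 1.35 for Kcne3, 1.23 for Kcne2, 1.15 for Kcns3, 1.08 for Kcnh2, 0.80 for Kcnk2 and 0.68 for Kcng4. Differences in the other direction included -2.68 for Kcnn3, -2.58 for Kcnq5, -1.28 for Kcnma1, -1.08 for Kcnip3, -0.79 for Kcnj11 and -0.43 for Kcnn1.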

How the results depend on the processing

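Counts of called genes stayed within 1.5 times of those reported under RLE and upper-quartile factors, DESeq2, no filter, the 2 groups alone, the title letter and an adjusted p under 0.01. With library totals, lower calls were 7 at 10 days and 6 at 30 days, and at 60 days 19 genes were higher and 3 lower. Of all genes called with library totals, 87.4%, 84.1% and 82.7% were higher at 10, 30 and 60 days. The partner list, whose alternatives were chosen after seeing the data, then gave 7 higher at 10 days and 10 lower at 30 days. Among genes with a mean of 50 or more fragments, 5 were higher and 10 lower at 10 days, 6 higher at 30 days, 5 higher at 60 days, and 7 higher at 60 than at 10 days. Fewer genes enter at that limit, so these counts cannot be set directly beside those reported. Library totals turned the sign of 22 of 160 log2 fold changes (40 genes reported, 4 comparisons), of which only that of Kcnj2 at 10 days had been called. Among the 24 genes given in every library these were Kcna5 at 60 days (0.23), Kcnc4 (0.21), Kcne3 (0.13), Kcnj2 (0.15) and Kcnq1 (0.096) at 10 days, Kcnj13 (0.18) and Kcnj2 (0.0028) at 60 days, and Kcnj2 from 10 to 60 days (-0.15). The cause was not tested. Leaving out 1 library at a time gave 11 to 12 higher and 13 to 18 lower at 10 days, 11 to 14 and 13 to 14 at 30 days, 10 to 14 and 7 to 11 at 60 days, and 14 to 15 and 6 to 9 at 60 against 10 days. The sign then turned for 16 of the 160 changes, none of them called, among which, in the 24 genes, were those of Kcna5 at 60 days (-0.55 to 0.0086) and, at 60 against 10 days, of Kcnh1 (-0.37 to 0.099), Kcnj2 (-0.016 to 0.26) and Kcnj9 (-0.23 to 0.064). Of changes not called, 25 passed without some 1 library, 19 with library totals and 2 to 8 under the other settings where any did. Not all of these are named beside the genes. A change said to pass without 1 library may also have passed with all kept under another setting. This was so for Kcnj8 and Kcnj6 at 60 against 10 days and Kcnk13 at 60 against 0 days. Fitting the 2 groups alone left Kcnf1 at 30 days and Kcnip3 at 60 days untested. A replicate block on the number that ends each column name gave 12 higher and 15 lower at 10 days, 13 and 13 at 30 days, 13 and 9 at 60 days, and 15 and 8 at 60 against 10 days. It ended the 10-day calls of Kcnmb1 (adjusted p = 0.0544) and Kcnj2 (adjusted p = 0.0552), and 4 changes not called without it passed. Libraries that share a number correlated at -0.142 to 0.216 in their deviations from group means, so the numbers were not taken to pair libraries.

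The 60-day libraries were the shallowest, so depth and the 60-day group cannot be told apart, and genes with few fragments, such as Kcnf1 and Kcnj9, are limited by counting error.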
